A study of Mus musculus with 4 samples.

Results

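The mouse genes for the proteins of the cytosolic ribosome were followed across 4 CD4 T cell samples. They were chosen by name: each non-control probe whose gene name in the scanner files was Rpl or Rps followed by a number, with or without a final a, x or y, or was Rplp0, Rplp1, Rplp2 or Rpsa. Names of the ribosomal S6 kinases were not taken. This gave 77 genes of 27741 gene names on the array, 46 of the large and 31 of the small subunit, on 129 of 41174 non-control probes. Each gene name was represented by its brightest probe over the 4 arrays. Probes under another name of a member were not taken. For Rplp0, both probes under its older name Arbp were brighter than the probe used. The file described 75 of the 77 as ribosomal proteins, and 70 of the 71 accessions found in a RefSeq gene table carried the same symbol there.

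All samples were total RNA of CD4 T cells from spleen and lymph nodes of Balb/C mice, hybridised to 1-colour Agilent arrays, 1 array per group. Naive T cells (CD4+CD25-CD62Lhi) and natural regulatory T cells (CD4+CD25+, called Treg) were fresh and untransfected. The other samples were Treg that received a lentivirus with a GFP reporter and a short hairpin RNA, either against Eos (si-Eos) or against Renilla luciferase (si-RL, the control). They then spent 60 h in medium with human IL-2 and were sorted as GFP+ cells. Neither the number of mice per sample nor the age of the mice was given in the sources used here. A single array per group leaves no replicates and no test, so every difference below is a difference between a pair of libraries.

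A ribosome is built from RNA and, for most ribosomal proteins, a single copy of each, so cells make these proteins in balanced amounts. Their mRNAs are among the most abundant of the cell and begin with a C and a run of pyrimidines, the 5′ terminal oligopyrimidine (TOP) tract, through which the mTOR pathway controls their translation. In resting T cells these mRNAs are largely held out of translation, and they are taken up by polysomes on activation. An array measures mRNA level, not translation.

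The choice by name did not use the TOP tract, so the start regions of 8 members that the results return to are shown, all taken from the 13 members with such a tract at the annotated start. RefSeq annotation of build GRCm38.p6 gave a start region for 56 of the 77 members. Each line gives 60 bases before and 20 bases after the annotated start, 5′ to 3′ on the gene's strand. The capitals mark the unbroken run of C and T that begins with a C at the annotated start.
Rps27 (chr3:90213629-90213708, minus strand): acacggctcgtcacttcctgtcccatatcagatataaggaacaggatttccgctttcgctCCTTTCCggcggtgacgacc
Rps21 (chr2:180257319-180257398, plus strand): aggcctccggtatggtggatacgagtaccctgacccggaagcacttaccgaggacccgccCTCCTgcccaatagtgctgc
Rps18 (chr17:33955646-33955725, minus strand): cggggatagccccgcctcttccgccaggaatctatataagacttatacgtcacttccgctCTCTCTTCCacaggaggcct
Rps6 (chr4:86857348-86857427, minus strand): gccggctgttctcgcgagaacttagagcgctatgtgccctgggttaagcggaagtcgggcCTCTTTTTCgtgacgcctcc
Rpl14 (chr9:120571457-120571536, plus strand): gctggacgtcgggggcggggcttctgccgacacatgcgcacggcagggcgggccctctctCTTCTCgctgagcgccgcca
Rpl28 (chr7:4792905-4792984, plus strand): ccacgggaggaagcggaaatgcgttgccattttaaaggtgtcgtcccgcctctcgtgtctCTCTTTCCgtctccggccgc
Rpl38 (chr11:114668520-114668599, plus strand): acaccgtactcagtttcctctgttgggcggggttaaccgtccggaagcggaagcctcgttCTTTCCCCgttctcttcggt
Rplp2 (chr7:141447591-141447670, plus strand): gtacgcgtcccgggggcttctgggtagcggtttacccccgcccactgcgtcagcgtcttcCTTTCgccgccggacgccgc

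A tract of at least 5 bases that began exactly at an annotated start was found in 13 of the 56 members (23.2%) and in 812 of 27018 genes of the table (3.01%). With the tract allowed to begin up to 5 bases to either side of the start, 27 members (48.2%) and 21.2% of all genes had one. The 13 tracts had a median length of 8 bases, and the longest was that of Rpl15 with 13. In the whole window of 250 bases before to 50 after the start, on both strands, the letters CCGGAAG, the core bound by ETS factors, stood in 41.1% of the members and 9.93% of all genes. The letters AAGATGGC, a core of the YY1 motif, stood in 8.93% against 3.19%, and the letters TATAAA in 10.7% against 15.7%. The E-box CACGTG was found in 10.7% of the members and 8.09% of all genes. CCGGAAG ends and AAGATGGC begins with AAG, so matches to these can overlap, and a match is a description of the sequence only.

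The target of the hairpin came first as a check of the labels. Ikzf4, which encodes Eos, gave a processed signal of 192 in naive T, 363 in Treg, 249 in the si-Eos-labelled library and 107 in the si-RL-labelled library on its brightest probe. The library labelled si-Eos was thus above the si-RL-labelled library by 0.93 ± 0.21 on the log2 scale, where ± is the scanner software's error for the 2 spots, and by 1.96 and 1.19 on the other Ikzf4 probes. Foxp3, the lineage factor of Treg, was higher in the same direction by 4.30 ± 0.21. This goes against the labels, so each is named only as the library labelled si-Eos or labelled si-RL and each direction between them holds only as labelled.

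Markers of T cells were measured on every array: the 8 pan-T cell genes summed to signals between 45999.6 and 100359. The 10 Treg markers summed to 9794 in naive T, 87066 in Treg, 159438 in the si-Eos-labelled library and 32979 in the si-RL-labelled library. The 8 markers of naive and quiescent T cells summed to 74119, 41561, 33632 and 53446 in the same order. Tnfrsf18 alone gave 28592 of the Treg marker sum in the si-RL-labelled library. There 8 of the 10 Treg markers were at least 1.5-fold lower than in Treg and 0 higher (18.7% and 18.3% of all genes), with a median difference of -2.66. Foxp3 gave 110 there, against 1778 in Treg and 64.4 in naive T, while Il2ra (0.46) and Tnfrsf18 (0.42) were slightly above Treg. B cell markers (8 or 9 of 10 above background) summed to between 1020 and 3784 and were highest in Treg, with Cd22, Pax5 or H2-Aa not well above background on some arrays. Myeloid markers (5 to 8 of 10) summed to between 511 and 791, erythroid and platelet markers (2 to 4 of 7) to between 269 and 550. NK and CD8 T cell markers summed to 17891 in the si-Eos-labelled library and to between 1080 and 3604 elsewhere. Nkg7 alone gave 16147 of that sum. Of the 8 such markers measured in that library and Treg, 5 were at least 1.5-fold higher in that library and 0 lower (19.8% and 18.2% of all genes). Besides Nkg7 these were Klrk1, Klrd1, Eomes and Prf1. Their signals were 272, 277, 175 and 199 there, against 13.7, 93.2, 64.7 and 115 in Treg. Cd8b1 gave 761 against 1139 in Treg, and Cd8a stayed between 18.6 and 29.9 on every array. The part of other cells in the results below was not tested, and in such bulk samples fewer cells of a type and less RNA per cell cannot be told apart.

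The ribosomal protein probes were bright on every array. All 77 were well above background on all 4 arrays and no spot was saturated. Their median processed signal reached 91437 in naive T and was 77683 in Treg, 57513 in the si-Eos-labelled library and 50386 in the si-RL-labelled library. They carried 22.1%, 18.3%, 16.7% and 19.7% of the summed signal of all genes in that order, and held 46 to 50 of the 100 brightest genes. Because the arrays differed in overall brightness, with a 75th percentile signal of 303, 392, 320 and 262, each level below is the log2 signal minus the log2 of the array's own 75th percentile.

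On this scale the naive T array was the highest of the 4 for 75 of the 77 genes. The exceptions were Rps19, highest in the si-RL-labelled library, and Rpl21, highest in the si-Eos-labelled library. Both leads were within the scanner error of 0.20. Rps19 had 8.13 against 8.08 in naive T, and Rpl21 had 3.54 against 3.44 in Treg. On a second bright Rps19 probe naive T was the highest. No member was lowest in naive T: 17 were lowest in Treg, 37 in the si-Eos-labelled library and 23 in the si-RL-labelled library. The same counts were not made over all genes, so these orders are not read as particular to the members. Other bright probes were mostly lower in Treg than in naive T too, as given below. The median level was 8.24 in naive T against 7.63, 7.49 and 7.59 in Treg, si-Eos and si-RL. The members with the brightest probes were Rps23, Rplp1 and Rps18, and those with the dimmest Rpl14, Rpl31 and Rpl21; brightness differs between probes for reasons other than mRNA amount, so it is not read as an order of genes. Rps23, a protein of the decoding centre, had levels of 9.94, 9.43, 9.42 and 9.71 in naive T, Treg, si-Eos and si-RL. Rpl31, near the exit of the peptide tunnel, had 2.86, 2.21, 1.66 and 2.09.

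**Figure D1:**
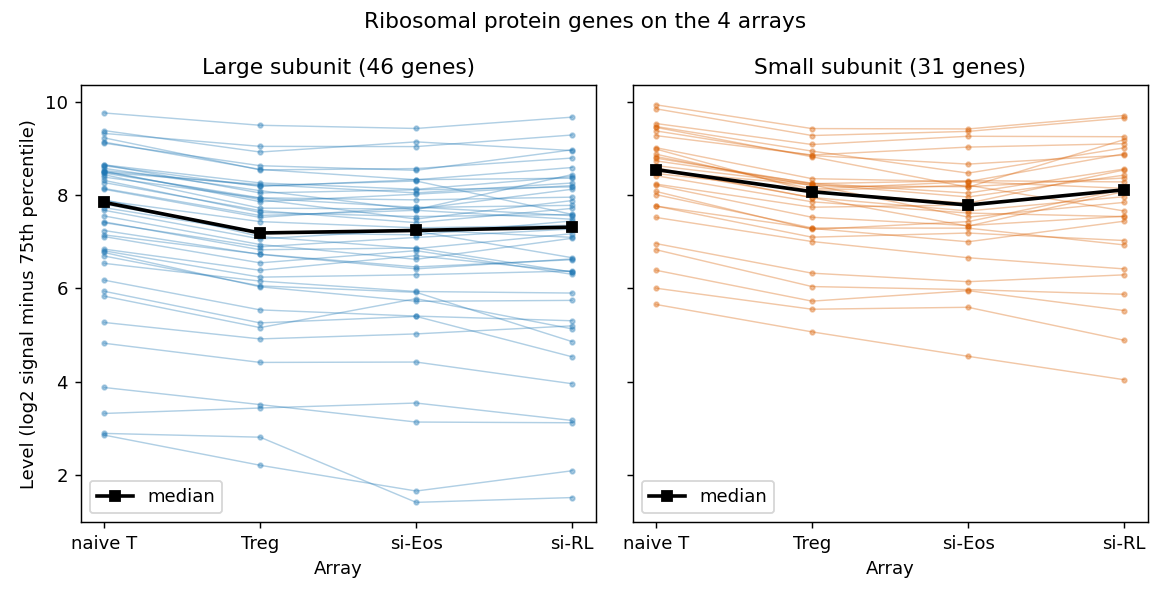
Level of each ribosomal protein gene (log2 signal minus the log2 75th percentile of its array) on the 4 arrays, 46 large subunit genes on the left and 31 small subunit genes on the right. Thin lines are genes and the thick black line their median, which is highest in naive T; each point is 1 array with no replicate.

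Treg cells had lower levels of nearly all ribosomal protein mRNAs than naive T cells. The level was lower for 76 of 77 genes, where 52.5% of all 17659 measured genes were lower, and the median difference was -0.56, a 1.48-fold lower level, against -0.02 over all measured genes. At least 1.5-fold lower were 35 members (7.13% of all genes), and none was at least 1.5-fold higher (10.7% of all genes) or at least 2-fold apart in either direction (7.55% of all genes). Lower by more than the scanner error, 0.20 for a difference, were 75 of the 77 (27.7% of all genes). The differences of the members lay close together, with an SD of 0.16 across genes, below that scanner error, where all measured genes had 0.64.

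Bright probes as a class were also lower in Treg. Among the 272 other measured genes whose probes were at least as bright as the 10th percentile of the members, the median difference was -0.28, 82.4% were lower and 19.9% were at least 1.5-fold lower. The members were thus lower than these by 0.28 on the log2 scale and lower than all genes by 0.54. The part of probe brightness in the difference was not tested. Neither subunit stood apart, with medians of -0.55 for the 46 large and -0.57 for the 31 small subunit genes.

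Rps28, a small protein near the mRNA exit of the small subunit, had the lowest difference. Its level was 8.99 in naive T and 8.07 in Treg, a difference of -0.92 ± 0.20, and its other probes gave -0.73 and -0.69. Rps19, mutated in Diamond-Blackfan anaemia, went from 8.08 to 7.27 (-0.81 ± 0.20). Rpl13a, a part of the GAIT complex that silences inflammatory mRNAs, went from 7.91 to 7.11 (-0.80 ± 0.20). All of these were 1.5-fold lower or more in Treg, as was Rpsa, a protein near the mRNA exit that is also known as the laminin receptor precursor, with 6.83 and 6.04 (-0.79 ± 0.20).

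At the other end, Rpl21 was the only member that was higher in Treg on the probe used, while its other, far dimmer probe gave -0.48. On the probe used its levels were 3.32 in naive T and 3.44 in Treg, a difference of 0.12 ± 0.20, within the scanner error. Rpl14 went from 2.89 to 2.81 (-0.08 ± 0.20), also within it. Over 7 settings that kept the probe, Rpl21 ran from -0.39 to 0.49 and Rpl14 from -0.47 to 0.29, so the sign of both depended on the scaling. Rpl11, a part of the 5S particle that binds Mdm2, went from 8.49 to 8.23 (-0.26 ± 0.20), and Rplp1, an acidic protein of the stalk that recruits translation factors, differed by -0.26 ± 0.20. These crossed 0 as well, Rpl11 with a range of -0.83 to 0.34 and Rplp1 with -0.77 to 0.13.

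Members with a role of their own are given next. In the stalk, Rplp2, the partner of Rplp1, was lower in Treg by a difference of -0.28 ± 0.20. Rplp0, the base of the stalk, differed by -0.68 ± 0.20 on the probe used, which was printed in 10 spots, and the probes under its older name Arbp gave -0.26, on the brighter one, and -0.66. Over 7 settings that brighter Arbp probe ran from -0.62 to 0.28. In the 5S particle, Rpl5 differed by -0.69 ± 0.20, more than its partner Rpl11. On the small subunit, Rps6, the substrate of the S6 kinases, differed by -0.72 ± 0.20, Rps3 at the mRNA entry by -0.63 ± 0.20 and Rps2 by -0.37 ± 0.20. Rps27a, which encodes ubiquitin joined to a ribosomal protein, differed by -0.50 ± 0.20. The X-linked Rps4x differed by -0.55 ± 0.20, Rpl10 by -0.64 ± 0.20 and Rpl22 by -0.41 ± 0.20. On this scaling each of these role members was lower in Treg by more than the scanner error on the probe used. Over the 7 settings Rplp2 (-0.78 to 0.25), Rps2 (-0.79 to 0.17) and Rps27a (-0.95 to 0.06) crossed 0.

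The size of this difference depended on how the arrays were set against each other, while its direction did not in any of the 10 settings run. These include the series value table, with the same intensities, and no filter on dim probes, which could not change the members' values. With the arrays scaled on their medians the difference was -0.77 (67 genes at least 1.5-fold lower), on the spike-in probes -0.30 (1 gene), and after normexp background correction -1.01 (75 genes). With no scaling, a setting added after the data were seen, it was -0.19, with 67 members lower and 0 at least 1.5-fold lower. Relative to the median of all measured genes it was -0.54 in each of these but normexp, where it was -1.22. Median, spike-in and no scaling change each array by a constant at most, so under them the -0.54 could not change. Quantile normalization gave -0.12 (1 gene) and -0.05 relative to all genes; it gives every array the same set of values, and the members hold about the same places among the brightest on each. The 13 members with a pyrimidine tract exactly at the annotated start had a median of -0.57 and the 43 others in the promoter table -0.54. Members with a tract a few bases away count among the others, so this split does not set mRNAs with a TOP tract against mRNAs without.

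**Figure D2:**
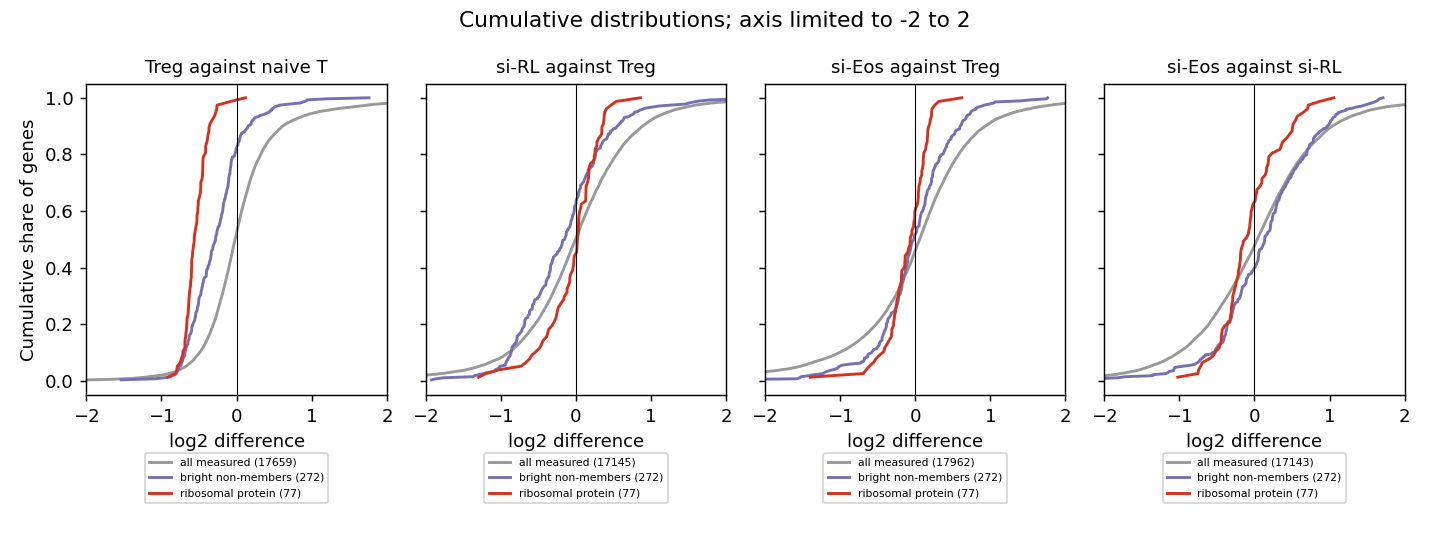
Cumulative share of genes (vertical axis) against the log2 difference (horizontal axis, limited to -2 to 2) in each comparison, for all measured genes, the 272 other bright genes and the 77 ribosomal protein genes. In Treg against naive T the ribosomal protein curve is steep and lies left of both others, with a median of -0.56; in the other comparisons it crosses near 0.

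The level of these mRNAs in the si-RL-labelled library relative to fresh Treg depended on the scaling. On the 75th percentile scale the median difference was 0.02 (all 17145 measured genes -0.01), and 34 of 77 genes were lower (50.4% of all genes). At least 1.5-fold lower were 7 members (18.7% of all genes) and at least 1.5-fold higher 1 (18.3% of all genes), and 3 were at least 2-fold apart (16.1% of all genes). Spike-in scaling gave a median of -0.25 with 63 lower, no scaling -0.56 with 76 lower, and normexp correction 0.65. The SD across members was 0.38, where it was 0.16 in Treg against naive T; that of all genes was 0.90 where it was 0.64, and that of the other bright genes 0.62 where it was 0.38. This library had been transduced, kept in IL-2 and sorted for GFP, and most Treg markers were lower in it than in Treg. These cannot be told apart here from each other.

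The 3 members at least 2-fold apart were all lower. Rpl14, a large subunit protein, had levels of 2.89, 2.81, 1.42 and 1.52 in naive T, Treg, si-Eos and si-RL, so both hairpin libraries were low and both fresh samples high. Its difference from Treg was -1.29 ± 0.20 in the si-RL-labelled library and -1.40 ± 0.20 in the si-Eos-labelled library, and it stayed below 0 in all 7 settings. Rpl10, which joins the large subunit late in its assembly, had 6.70, 6.06, 5.92 and 4.86, with the si-RL-labelled library alone low (-1.19 ± 0.20 from Treg). The file places that Rpl10 probe on chr13:62394783-62394842 (build mm8) although the gene lies on the X chromosome, and a further Rpl10 probe gave -1.37. Rps15, needed for export of the small subunit from the nucleus, had 5.66, 5.07, 4.55 and 4.05, with naive T high and the si-RL-labelled library low, a difference from Treg of -1.03 ± 0.20.

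Below these came Rpl4, with levels of 5.94, 5.26, 5.40 and 4.54 in naive T, Treg, si-Eos and si-RL (-0.73 ± 0.20 from Treg to si-RL). Rps26 (-0.66), Rpl41 (-0.62) and Rps9 (-0.59) completed the 7 members at least 1.5-fold lower. The single member at least 1.5-fold higher was Rps19, with levels of 8.08, 7.27, 7.43 and 8.13, so that the si-RL-labelled library stood at the naive T level (0.86 ± 0.20 above Treg). A second bright Rps19 probe gave 0.59. A dim one gave 2.92, so the probes differed in size but not in sign. Rps14 with 0.53 ± 0.20 and Rps28 with 0.47 ± 0.20 were also higher.

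The differences of this library from Treg went with the brightness of the probe. The 26 members with the dimmest probes had a median of -0.24, the middle 26 of 0.02 and the 25 brightest of 0.18, and all of the brightest 25 lay above 0, the lowest at 0.01. Over the 77 members the correlation of the difference with the mean level, which shares both arrays with it, was 0.60 (Pearson) and 0.62 (Spearman). The 272 other bright genes had a median of -0.15. What sets this relation was not tested. Normexp background correction, which changes the spread of bright against dim probes, moved the median to 0.65, with 6 members lower and 43 at least 1.5-fold higher.

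**Figure D3:**
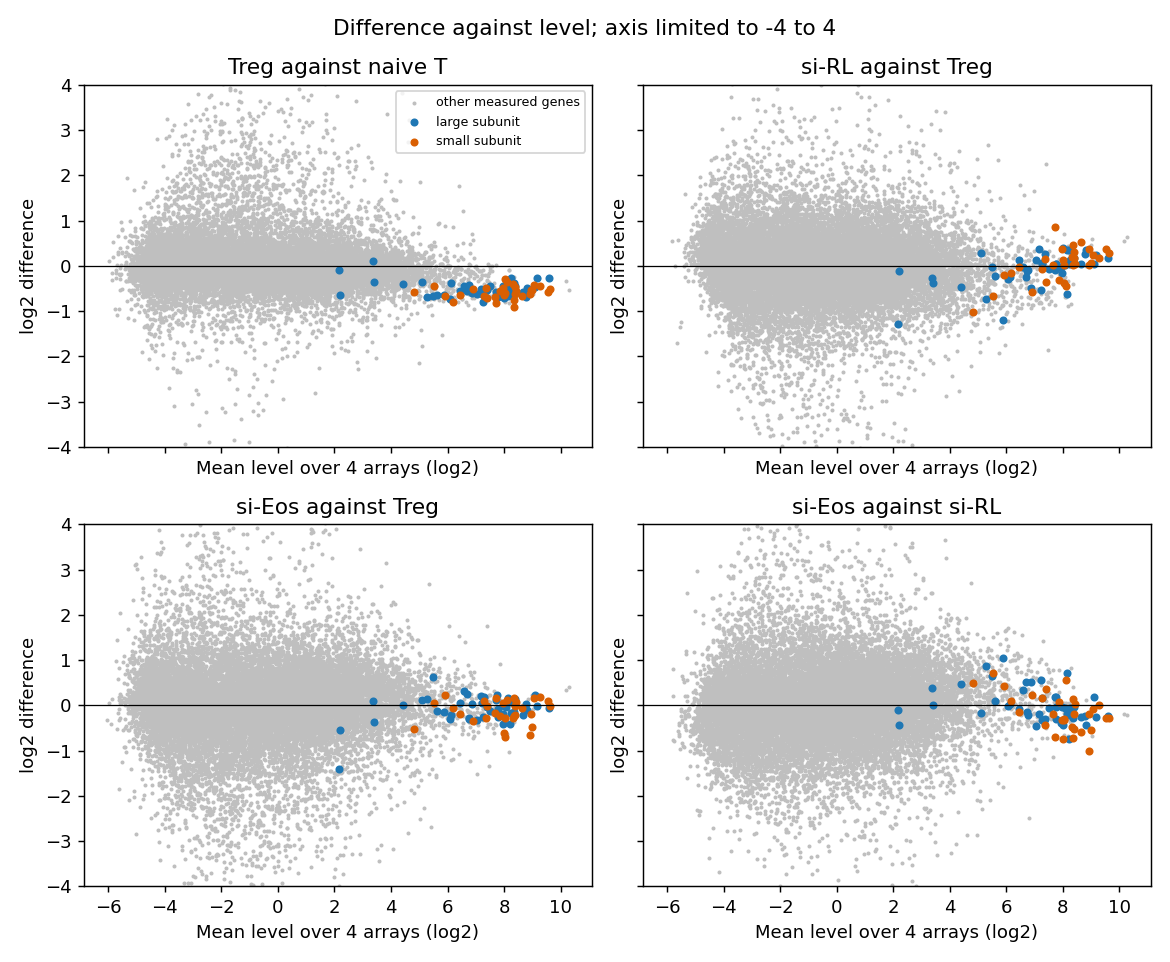
Log2 difference (vertical axis, limited to -4 to 4) against mean level over the 4 arrays (horizontal axis, log2) for the 4 comparisons; grey points are other measured genes, blue large subunit and orange small subunit genes. The ribosomal protein genes lie together below 0 in Treg against naive T, and rise with level in si-RL against Treg.

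For the si-Eos-labelled library, too, the typical difference from fresh Treg depended on the scaling. On the 75th percentile scale it was a median of -0.06 (all 17962 measured genes 0.06), with 46 of 77 genes lower (45.9% of all genes). Only 4 members were at least 1.5-fold lower (18.2% of all genes) and 1 at least 1.5-fold higher (19.8% of all genes), and 1 was at least 2-fold apart (18.9% of all genes). Among the 272 other bright genes 51.5% were lower. Of these bright genes 9.56% were at least 1.5-fold lower, 11.4% at least 1.5-fold higher and 7.35% at least 2-fold apart. This comparison and the preceding one share the Treg array, so their values are given side by side and not as support for each other. After normexp correction the median was 0.57, with 36 members at least 1.5-fold higher, and with spike-in scaling -0.34, with 75 lower and 14 at least 1.5-fold lower (-0.36 and 75 lower with no scaling).

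Among the 4 lower members were Rpl14, given above, Rps27 and Rps21. Rps27, a zinc finger protein of the small subunit, had levels of 9.45, 8.82, 8.17 and 9.19 in naive T, Treg, si-Eos and si-RL, so the si-Eos-labelled library was the lowest and the si-RL-labelled library lay between Treg and naive T. Rps21 had 8.59, 7.95, 7.34 and 8.08 and the same order. The member at least 1.5-fold higher was Rplp0, with 5.84, 5.16, 5.78 and 5.13: naive T and the si-Eos-labelled library were high and Treg and the si-RL-labelled library low (0.62 ± 0.20 above Treg). Probes under the older name of the same gene, Arbp, were brighter and gave 0.24 and 0.47, both below 1.5-fold. The size thus differed between probes while the sign did not. Rpl15 (0.31 ± 0.20) and Rpl28 (0.26 ± 0.20) came next.

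The hairpin libraries, whose comparison was meant to show what loss of Eos does in cultured Treg, differed little in the typical ribosomal protein gene. The median of the si-Eos-labelled library minus the si-RL-labelled library was -0.10 (all 17143 measured genes 0.04), with 48 of 77 genes lower (47.7% of all genes). At least 1.5-fold lower were 6 members (21% of all genes) and at least 1.5-fold higher 5 (22.4% of all genes), and 2 were at least 2-fold apart (20.9% of all genes). Among the 272 other bright genes 39.7% were lower. Of these bright genes 9.19% were at least 1.5-fold lower, 23.5% at least 1.5-fold higher and 14.0% at least 2-fold apart. Beyond the scanner error, 30 members were lower (35.8% of all genes) and 16 higher (39.5% of all genes). The median was below 0 in 9 of 10 settings and 0.18 with no scaling, where all genes stood at 0.33. The 9 include the series value table and no filter on dim probes, which could not change the median.

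Both subunits had members on either side. Of the 48 lower members 29 were of the large and 19 of the small subunit. Of the 6 at least 1.5-fold lower, 5 were small subunit genes (Rps27, Rps21, Rps28, Rps19 and Rps14) and 1 was Rpl38. Of the 5 at least 1.5-fold higher, 4 were large subunit genes (Rpl10, Rpl4, Rpl41 and Rplp0) and 1 was Rps26. For Rplp0 this held on the probe used only, as both brighter Arbp probes, with -0.02 and 0.49, were below 1.5-fold. The subunit medians were -0.06 for the 46 large and -0.19 for the 31 small subunit genes, with SDs of 0.38 and 0.42 that cover the gap between them. The members with the brightest probes were lower as well: the medians ran from 0.10 in the dimmest 26 through -0.12 in the middle 26 to -0.25 in the brightest 25, and the correlation with mean level over the 77 genes was -0.40 (Pearson).

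Rps27 differed most downwards, by -1.02 ± 0.20, and lay between -1.03 and -0.73 over 7 settings. Its probe stands at chr3:90298596-90298655 on build mm8. Rpl38, which has been tied to the translation of Hox mRNAs in the embryo, had levels of 8.57, 8.10, 7.69 and 8.44 in naive T, Treg, si-Eos and si-RL, a difference of -0.75 ± 0.20. Rps21 differed by -0.74 ± 0.20 and its other probes by -0.84 and -0.75. Rps28 had 7.83 against 8.54 (-0.71 ± 0.20; its other probes gave -0.55 and -0.50). For these 4 genes the si-Eos-labelled library was the lowest of the 4 arrays.

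Upwards, Rpl10 differed most, by 1.06 ± 0.20, and its further probe gave 1.24. Rpl4 differed by 0.87 ± 0.20. Rpl41, among the shortest proteins known, had levels of 8.53, 8.20, 8.30 and 7.59 in naive T, Treg, si-Eos and si-RL, a difference of 0.72 ± 0.20, and Rps26, at the mRNA exit, had 6.01, 5.56, 5.60 and 4.89 (0.71 ± 0.20). In each of these the si-RL-labelled library was the low one and the si-Eos-labelled library lay near Treg. Over 7 settings Rpl10 ran from 0.97 to 1.34 and Rpl4 from 0.74 to 1.15.

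The other role members lay between these. Rps2 was higher in the si-Eos-labelled library (8.21 against 7.66, a difference of 0.55 ± 0.20), as were Rps6 (7.29 against 6.93, 0.36 ± 0.20) and Rplp0 on the probe used (5.78 against 5.13, 0.65 ± 0.20), while the Arbp probes of that gene gave -0.02, on the brighter one, and 0.49. Rplp1 and Rplp2, the acidic stalk proteins, were lower by differences of -0.24 ± 0.20 and -0.25 ± 0.20. In the 5S particle Rpl5 differed by -0.23 ± 0.20 and Rpl11 by -0.21 ± 0.20. Rps27a differed by -0.33 ± 0.20. Rps3 (-0.19), Rpl22 (-0.16), Rpsa (0.10) and Rps4x (0.03) were within the scanner error.

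A gene's difference between Treg and naive T was at most weakly related to its difference between the hairpin libraries. These comparisons share no array, and over the 77 genes their correlation was 0.10 (Pearson) and 0.05 (Spearman), given as a description since genes are not replicates. Rps28 and Rps19 were low in both, and Rpl10 and Rpl4 were low in the first and high in the second. The 13 members with a tract exactly at the annotated start had a median of -0.15 between the hairpin libraries and the 43 others -0.07, with ranges of -1.02 to 0.52 and -0.71 to 1.06 that overlap. Here too the split does not set mRNAs with a TOP tract against mRNAs without.

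**Figure D4:**
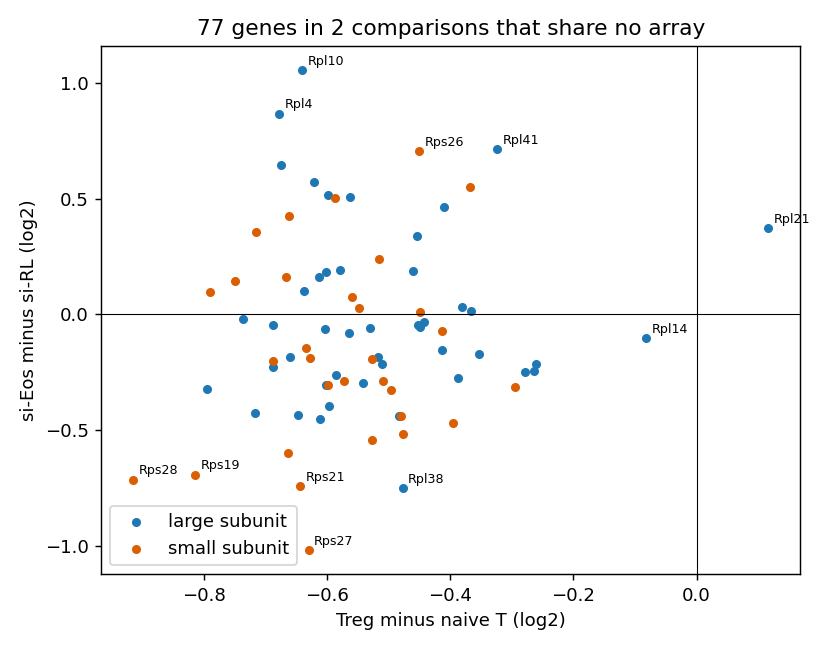
Each point is 1 of the 77 ribosomal protein genes: the log2 difference Treg minus naive T on the horizontal axis and si-Eos minus si-RL, as labelled, on the vertical axis; blue is large and orange small subunit. Nearly all points lie left of 0, between -0.92 and 0.12, while the vertical spread runs from -1.02 to 1.06.

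Other probes of the same genes gave a measure of how far a single probe can be trusted. Of 52 such probes, 49 were measured in each comparison. In Treg against naive T 47 of 49 were lower and 3 had the opposite sign to the probe used, with a median gap of 0.09. Opposite signs were found for 15 probes in si-RL against Treg, 14 in si-Eos against Treg and 12 between the hairpin libraries, with median gaps of 0.19, 0.13 and 0.16. Most large gaps came from dim probes: among the 31 within 3 log2 units of the probe used, the largest gap was 0.31 for Treg against naive T but 0.83 for the hairpin libraries. The latter gap was that of Rpl31, with -0.43 on the probe used and 0.40 on another, so its probes differed in sign. Rpl7a also had a wide gap, with 0.19 on the probe used and 0.92 on another.

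Relatives of the members outside the name rule behaved in different ways. Rps27l, the p53-inducible paralog of Rps27, gave processed signals of 1533 in naive T, 3502 in Treg, 13967 in the si-Eos-labelled library and 10129 in the si-RL-labelled library. Both hairpin libraries were far above both fresh samples, by 2.29 ± 0.20 and 2.11 ± 0.20 over Treg, and Treg was above naive T by 0.82 ± 0.20, opposite to Rps27 (-0.63). Rpl22l1, the paralog of Rpl22, gave 38107, 32624, 11553 and 17073 in the same order: its difference from Treg was -1.20 ± 0.20 in the si-Eos-labelled library and -0.35 ± 0.20 in the si-RL-labelled library, where Rpl22 had -0.27 and -0.12. Fau, which encodes the small subunit protein S30 joined to a ubiquitin-like part, was lower in Treg than naive T by a difference of -0.63 ± 0.20 and above Treg in the si-RL-labelled library by 0.60 ± 0.20. Of the 7 paralogs measured, 2 passed 1.5-fold upwards and 2 downwards in Treg against naive T (10.7% and 7.13% of all genes), with a median of 0.20.

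Other mRNAs known to begin with a TOP tract, such as those of elongation factors, had a median difference of -0.36 in Treg against naive T over 24 genes, beside -0.28 for the other bright genes. Of the 24, 5 were at least 1.5-fold lower and 0 higher, where 7.13% of all genes and 19.9% of the other bright genes were that much lower; relative to all genes the median was -0.34 (0.04 after quantile normalization). Snhg8, a host of small nucleolar RNAs, differed by -1.08 ± 0.20, with signals of 1699 in naive T and 1044 in Treg, and it was higher in the si-RL-labelled library than in Treg by 1.64 ± 0.20. In the hairpin libraries the list's medians against Treg were -0.04 for si-RL and 0.16 for si-Eos, and 0.23 between them. Eif3s12 (now Eif3k), a subunit of initiation factor 3, was lower in the si-RL-labelled library than in Treg by a difference of -1.51 ± 0.20 and higher in the si-Eos-labelled library than in it by 1.48 ± 0.20.

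Between the hairpin libraries, the genes that build ribosomes were mostly higher in the si-Eos-labelled library. Of 67 ribosome biogenesis factors, 40 passed 1.5-fold upwards and 0 downwards (22.4% and 21% of all genes), with a median of 0.69 beside the -0.10 of the ribosomal protein genes and the 0.04 of all genes. Nola2 (now Nhp2), of the box H/ACA particles, had signals of 2803 in Treg, 3690 in si-Eos and 942 in si-RL and a difference of 1.68 ± 0.20; Rrp12 (1.61 ± 0.24) and Wdr74 followed, the latter with 662 in Treg, 1107 in si-Eos and 320 in si-RL. Relative to all genes the list's median lay between 0.63 and 0.70 in the 7 settings, of which only quantile normalization and normexp correction could change it. Against Treg it was 0.30 for the si-Eos-labelled library, with 18 at least 1.5-fold higher and 0 lower (19.8% and 18.2% of all genes), and -0.37 for the si-RL-labelled library, with 3 higher and 18 lower (18.3% and 18.7%); normexp correction turned the latter to 0.31 relative to all genes. Wdr12, of the PeBoW complex, was 1.23 ± 0.20 above Treg in the si-Eos-labelled library, and Ftsj3 was lower than Treg in the si-RL-labelled library by a difference of -1.09 ± 0.20. Of the 67, 6 passed 1.5-fold downwards and 0 upwards in Treg against naive T (7.13% and 10.7% of all genes), with a median of -0.23.

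The ribosomal proteins of the mitochondrion are a separate list, and no test between lists was run. Of 75 genes, 32 passed 1.5-fold upwards in the si-Eos-labelled library against the si-RL-labelled library and 0 downwards (22.4% and 21% of all genes), with a median of 0.44. Mrps6 had signals of 1877, 4532, 9619 and 1414 in naive T, Treg, si-Eos and si-RL, a difference of 2.48 ± 0.20, followed by Mrps27 (1.62 ± 0.22) and Mrps22 (1.39 ± 0.20). In Treg against naive T the median was -0.14, with 1 at least 1.5-fold higher and 2 lower (10.7% and 7.13% of all genes). Against Treg, 20 of the 75 were at least 1.5-fold higher and 0 lower in the si-Eos-labelled library (19.8% and 18.2% of all genes), with a median of 0.36. In the si-RL-labelled library 3 were higher and 7 lower (18.3% and 18.7% of all genes), with a median of -0.11.

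Of 43 genes named as initiation factors, 19 passed 1.5-fold upwards and 3 downwards between the hairpin libraries (22.4% and 21% of all genes), with a median of 0.51. The names took in 4 Argonaute genes of RNA silencing, Eif2c1 to Eif2c4 in the file; without these 18 of 39 were higher and 2 lower, with a median of 0.57. Eif1a, which helps to find the start codon, differed by 1.85 ± 0.20, the Argonaute gene Eif2c1 (now Ago1) by -1.56 ± 0.20, and Eif4e, which binds the mRNA cap, by 1.48 ± 0.20, tied with Eif3s12. Their median in Treg against naive T was -0.08, with 1 higher and 2 lower (10.7% and 7.13% of all genes). Of the 13 elongation and release factors 4 were higher and 0 lower between the hairpin libraries (22.4% and 21% of all genes). Their median was 0.40, and Eif5a led with 1.55 ± 0.20. In Treg against naive T 1 of 12 was higher and 1 lower (10.7% and 7.13% of all genes), with a median of -0.23.

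The mTOR pathway list, which holds the S6 kinases, had no common direction in the comparison where the ribosomal protein genes were low. Between Treg and naive T, 3 of 29 passed 1.5-fold upwards and 2 downwards (10.7% and 7.13% of all genes), with a median of 0.01. Rragd, a GTPase of the amino acid branch, was higher by 2.71 ± 0.22. In both hairpin libraries Sesn2 and Ddit4, inhibitors of mTOR complex 1 that respond to stress, were far above Treg. Sesn2 had signals of 188, 437, 4945 and 3738 in naive T, Treg, si-Eos and si-RL (3.79 ± 0.20 and 3.68 ± 0.20 above Treg), and Ddit4 had 1308, 1885, 9647 and 10068 (6.27-fold and 7.99-fold above Treg). Eif4ebp1, which blocks Eif4e, was above Treg by 2.30 ± 0.20 and 2.43 ± 0.20. These 3 were the largest differences of the list in each library. Rraga (1.02 and 1.49), Rragc (1.08 and 1.03) and Rragd (1.64 and 1.03), GTPases of the amino acid branch, were above Treg in both as well. Of the 29 genes, 11 were at least 1.5-fold higher and 2 lower in the si-Eos-labelled library (19.8% and 18.2% of all genes). In the si-RL-labelled library 9 were higher and 2 lower (18.3% and 18.7% of all genes). Activity of the pathway was not tested. Between the hairpin libraries 8 were higher and 6 lower (22.4% and 21% of all genes), with a median of -0.02, led by Sesn1 (-1.68 ± 0.20).

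Myc, which drives transcription of ribosome biogenesis genes, had signals of 2162 in naive T, 3327 in Treg, 9460 in the si-Eos-labelled library and 9440 in the si-RL-labelled library. It was above Treg by 1.80 ± 0.20 in the former and by 2.09 ± 0.20 in the latter. Its antagonists Mxi1 (1.85 ± 0.20 and 1.67 ± 0.20) and Mxd1 (1.25 ± 0.20 and 1.39 ± 0.20) were higher in both as well, while Mxd4 of the same family was lower in both (-0.38 ± 0.20 and -1.33 ± 0.20). Of the 9 measured genes of this network, 3 passed 1.5-fold upwards in Treg against naive T and 0 downwards (10.7% and 7.13% of all genes). Mxd3 stood at 1.98 ± 0.22. Between the hairpin libraries 2 were higher and 2 lower (22.4% and 21% of all genes), none by 2-fold.

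**Figure D5:**
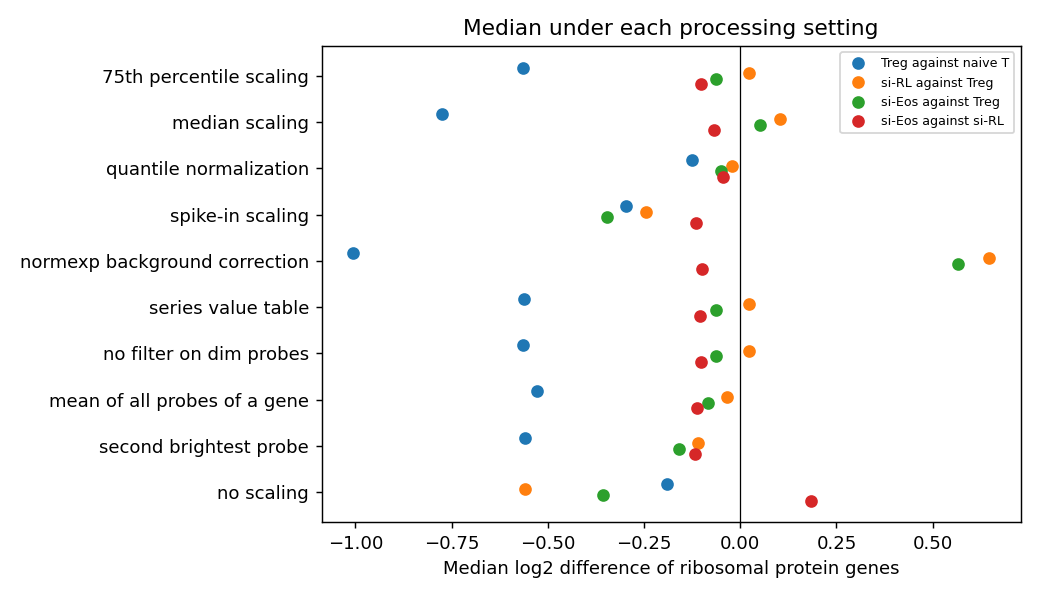
Median log2 difference of the ribosomal protein genes (horizontal axis) in each comparison under 10 processing settings (rows). The series value table and no filter on dim probes repeat the main values. Treg against naive T is below 0 in every setting, from -1.01 to -0.12, and the comparisons of the hairpin libraries with Treg lie on either side of 0.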

How the data were processed

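Total RNA of 4 mouse T cell samples was amplified, labelled with Cy3 and hybridised to Agilent arrays, as the labels' protocols say. Each deposited scanner file gave a processed intensity per spot on a linear scale. Per the file headers this was background-subtracted but not normalized between arrays, and the software was version 9.5.3.1 of Agilent Feature Extraction. The series value table, as deposited by the authors, held the same intensity values and served as an alternative. All 4 arrays were on 1 slide.

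Spots with an outlier flag (71 to 94 of 43379 per array) were left out, spots of 1 probe were averaged as log2, and the log2 of each array's 75th percentile over non-control probes was subtracted. A gene was measured where both arrays had its brightest probe well above background. Counts used 1.5-fold and 2-fold; with 1 array per group no test was run, and the number of arrays limits the precision. Alternatives were median, quantile and spike-in scaling, normexp correction (offset 50), the value table, no filter, other probe rules and other reference genes. Python 3.11.15, numpy 2.4.6, pandas 2.3.3, R 4.3.3 and limma 3.58.1 were used; the counting step was tested on simulated data.

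Values on all arrays were given for the 3 members with the brightest and the 3 with the dimmest probes, the 4 largest differences each way per comparison and members with a role of their own, and for 8 pathway lists for up to 3 genes per comparison at least 2-fold apart; 7 marker lists described the samples. Members and lists were chosen with earlier results of these data known. Start regions came from RefSeq (GRCm38.p6); probe and protein sequences were not used here. A few genes that this rule names are not reported here.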

Additional observations from a re-analysis of the deposited data

Results flagged for a closer look

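For 5 members the library labelled si-RL lay on one side of Treg and the library labelled si-Eos on the other, each by more than the scanner error, as did 16.6% of the 16852 genes measured in both comparisons. With 1 array per library the difference was not tested, and both values share the Treg array. Rps27 was at 0.37 in si-RL and -0.65 in si-Eos, Rpl38 at 0.35 and -0.41, Rps28 at 0.47 and -0.25, and Rps7, a small subunit protein that binds Mdm2, at 0.30 and -0.21. Rpl28 went the other way, at -0.25 in si-RL and 0.26 in si-Eos.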

How the results depend on the processing

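No paired analysis was possible because each group is 1 array, and for the same reason there was no replicate to leave out. Of 152 values under alternative settings, 102 stayed within the scanner error (or 1.5 times, for counts), and 50 moved. The 102 include the values from the series value table and from no filter on dim probes, which could not move. No median beyond the scanner error changed sign, but the medians of the 3 comparisons with a hairpin library lie within it, and each changed sign under a setting below. Values are the members' median and the numbers of members lower, at least 1.5-fold lower and at least 1.5-fold higher. What moved them was not tested, except as said.

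In Treg against naive T, median scaling gave -0.77 with 67 at least 1.5-fold lower, quantile normalization -0.12 with 1, spike-in scaling -0.30 with 1 and normexp correction -1.01 with 75. The second brightest probe, which only 36 members have, gave 35 lower and 17 at least 1.5-fold lower. No scaling, added after seeing the data, gave -0.19 and 0. The members minus all genes, -0.54, became -0.18 against bright genes and -0.28 against bright genes other than members, a reference added after seeing the data.

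In si-RL against Treg, median scaling gave 4 at least 1.5-fold lower and 2 higher. Spike-in scaling gave -0.25, with 63 lower and 15 at least 1.5-fold lower. Normexp gave 0.65, with 6 lower, 2 at least 1.5-fold lower and 43 higher. No scaling gave -0.56, with 76 lower, 34 at least 1.5-fold lower and 0 higher.

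In si-Eos against Treg, median scaling gave 1 at least 1.5-fold lower, and quantile normalization 0 higher. Spike-in scaling gave -0.34, with 75 lower, 14 at least 1.5-fold lower and 0 higher. Normexp gave 0.57, with 3 lower, 1 at least 1.5-fold lower and 36 higher. The second brightest probe gave 25 lower and 0 at least 1.5-fold higher, and no scaling -0.36, with 75, 14 and 0.

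In si-Eos against si-RL, quantile normalization gave 3 at least 1.5-fold lower, and the second brightest probe 21 lower and 3 at least 1.5-fold higher. No scaling gave 0.18, with 23 lower, 1 at least 1.5-fold lower and 15 higher. The all-gene medians under normexp were 0.21, -0.31, -0.36 and -0.06 in the 4 comparisons. All members were well above background on every array. With a single array per group the spread between replicates was not measured.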
